A study of Danio rerio with 2 samples.

Results

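Inflammasome and early cytokine genes were followed across the cells of the larval caudal fin fold. The set holds 5 genes chosen by name: pycard, caspa, il1b, tnfa and tnfb. They are 5 of the 15411 genes listed in the matrix that aggregates both libraries, and all 5 had UMIs. Single cells came from amputated (cut) and intact (uncut) caudal fin folds of zebrafish larvae. The cut larvae were amputated at 3 dpf, and fin folds of both groups were collected at 24 hpA. About 150 fin folds were pooled for each of the 2 conditions, and each condition is 1 library of the Chromium 3' assay. The methods name the AB strain and several transgenic lines for the whole study, and which of them gave these larvae is not stated. Both groups are pools of whole fin folds with no sorting of cells given.

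The inflammasome is a protein complex that assembles on the adaptor ASC, the product of pycard. ASC recruits an inflammatory caspase through its pyrin domain, and in zebrafish this caspase is Caspa, or its relative Caspb. The active caspase matures interleukin-1 beta, the product of il1b, and can start a lytic form of cell death. Tumour necrosis factor, a cytokine that macrophages release early after a wound, is encoded in zebrafish by tnfa and tnfb. In RefSeq's gene order, pycard and caspa are next to each other, and caspa also carries the older names casp1 and caspy.

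There were 762 cut cells (median depth 7212 UMIs) and 878 uncut cells (median depth 10476.5 UMIs), after aggregation had left the cut total at 95.3% of its value in the separate matrix. The libraries shared 0 cell barcodes. Levels are written in UPM, the gene's UMIs for every 1000000 UMIs of the cells in question. Cells were grouped into 19 clusters without using the members or their pathway. Superficial epidermis-like cells (clusters 1, 4 and 9) numbered 299 in cut and 155 in uncut, with 166 of the cut cells in cluster 1 and the largest part of the uncut cells, 69, in cluster 4. Basal epidermis-like cells numbered 72 in cut and 122 in uncut, with 44 of the cut cells in cluster 10 and 78 of the uncut cells in cluster 7, and their median depth was 2471.5 UMIs in cut and 13043.5 in uncut. The myeloid-like group was 1 cluster, with 36 cut and 11 uncut cells. It had 10 of 13 listed myeloid markers raised. Of them, mpeg1.1, a macrophage marker, had 1079 UPM in the cut and 985 in the uncut myeloid-like cells. In superficial epidermis-like cells mpeg1.1 had 3 UMIs in 1 of the cut cells, and 0 UMIs in the uncut cells. Clusters 3, 6 and 15 carried superficial markers but had more markers of another class among their leading genes, and are given by number. So is cluster 8, whose leading genes included the cell division genes cdk1 and top2a, with 3 of 12 mesenchyme markers raised.

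Levels have exact Poisson 95% intervals. Shares have exact binomial intervals, and where no cell had a UMI the share that 3 cells would give is written as the share allowed. With 1 library per condition there was no test between conditions, and all intervals cover counting error only, not the spread between cells, animals or libraries. Where the UMIs of a gene gather in few cells, the intervals are too narrow for that spread.

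The members fell into different places. The genes pycard and caspa had UMIs across the epidermis and in myeloid-like cells, il1b was read mostly from myeloid-like cells, and tnfb from both myeloid-like and superficial epidermis-like cells. For tnfa there were only 7 UMIs in all, 6 of them in myeloid-like cells. Of all il1b UMIs, 76.8% (72.1 to 81.1) lay in the 47 myeloid-like cells. Of tnfb, 47.8% lay there and 33.0% in superficial epidermis-like cells. Of pycard, 57.1% lay in superficial epidermis-like cells, 87.7% once clusters 3, 6 and 15 were added, and 1.09% in myeloid-like cells.

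**Figure D1:**
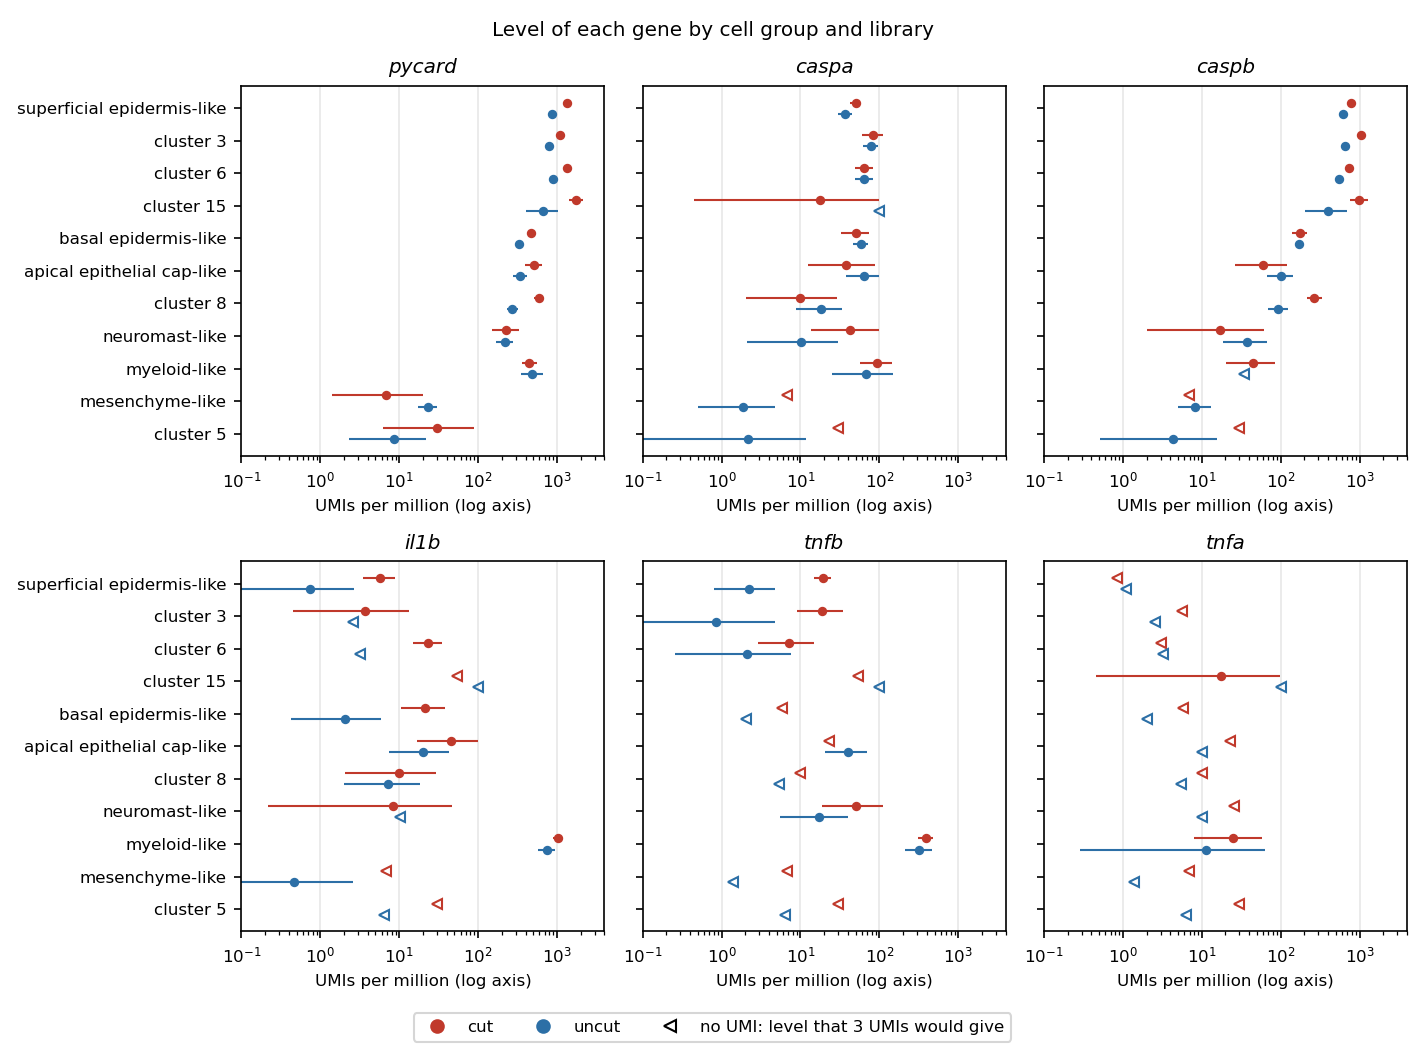
Each panel is a gene, the x axis is its level in UPM on a log scale, and rows are cell groups with cut (red) above uncut (blue). Points carry exact Poisson 95% intervals, some of which run past the left edge, and open triangles mark groups without a UMI at the level that 3 UMIs would give. The levels of pycard and caspb are highest in the epidermal groups, those of il1b and tnfb in myeloid-like cells.

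Among the inflammasome genes, pycard was the most abundant. It reached 1340 UPM (1302 to 1379) in cut superficial epidermis-like cells and 854 (820 to 889) in uncut ones. Cluster 3 had 1085 in cut and 794 in uncut, and cluster 6 had 1324 in cut and 896 in uncut. Basal epidermis-like cells, the layer below, had 474 (416 to 537) in cut and 327 (299 to 358) in uncut. Thus the outer layer carried more pycard than the basal layer in each library, by 2.83-fold in cut and 2.61-fold in uncut. Myeloid-like cells had 448 (361 to 550) in cut and 487 (352 to 656) in uncut. The basal over myeloid log2 ratio was 0.08 (-0.27 to 0.44) within cut and -0.57 (-1.02 to -0.09) within uncut cells. In order of level over both libraries, the superficial group and clusters 15 and 6 overlapped, cluster 3 stood below them, and the myeloid-like group, the apical epithelial cap-like group, cluster 8 and the basal group followed with neighbours overlapping. This order mixes the libraries. Within cut the level was 590 in cluster 8 and 508 in the cap-like group, both above the myeloid-like value, and cluster 15 had 1762 in cut but 666 in uncut, from 20 and 6 cells.

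Mesenchyme-like cells served as cells that should lack pycard. They had 3 UMIs in 62 cut cells and 50 UMIs in 171 uncut cells, of which 22 were from 1 cell. A UMI of pycard was seen in 92.3% of cut and 96.8% of uncut superficial epidermis-like cells, but in 4.84% of cut and 11.1% of uncut mesenchyme-like cells. Median depth was 9872 and 17113 UMIs in the cut and uncut superficial group, and 5870 and 11866 in the cut and uncut mesenchyme-like group. After each cell was thinned to 2000 UMIs, which left out 15 cut and 0 uncut superficial cells, the share was 82.0% (77.1 to 86.3) in cut and 75.5% (67.9 to 82.0) in uncut. The thinned share went the same way as the level, and the unthinned share the other way. The intervals of cut and uncut overlapped both after thinning and before it (88.7 to 95.1 and 92.6 to 98.9), so neither order could be told from counting error. In myeloid-like cells the thinned share was 50% in cut and 45.5% in uncut (66.7% and 72.7% unthinned), against 3.45% in cut and 2.34% in uncut mesenchyme-like cells.

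**Figure D2:**
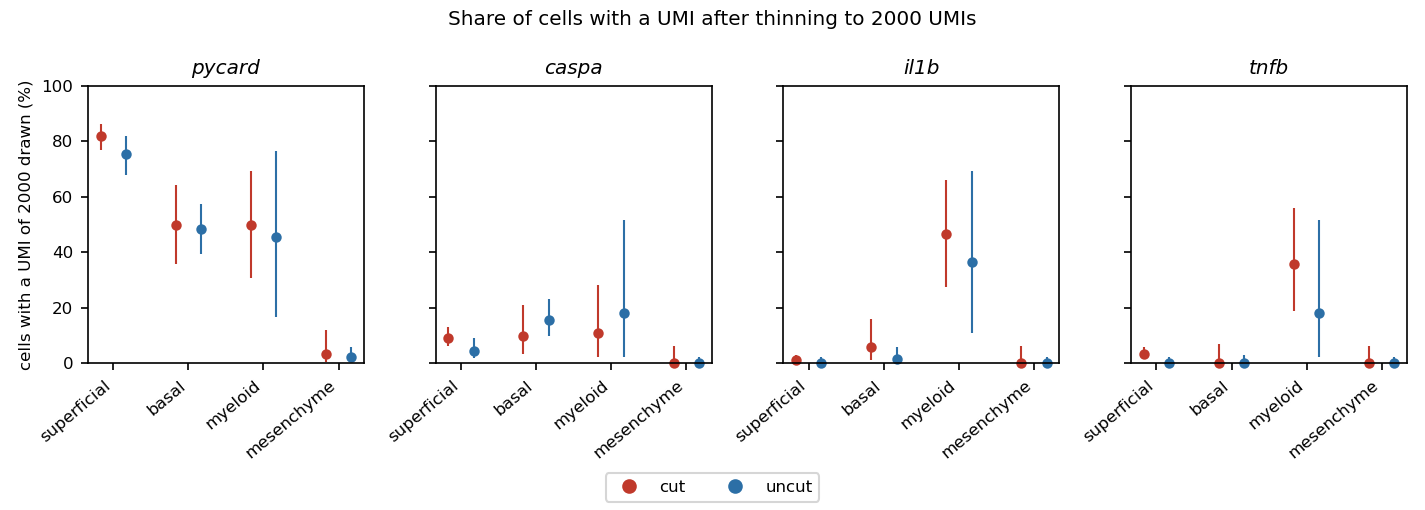
The y axis is the percent of cells with at least 1 UMI of the gene after thinning to 2000 UMIs per cell, for 4 cell groups in cut (red) and uncut (blue), with exact binomial 95% intervals. Cells with pycard are most frequent in superficial epidermis-like cells, cells with il1b and tnfb in myeloid-like cells, and the mesenchyme-like shares are at or near 0.

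The pycard UMIs of the myeloid-like cells were compared with those of the epidermis. In superficial epidermis-like cells, caspb, the other pyrin-domain caspase gene, had 62.7 UMIs per 100 UMIs of pycard. One of the cut myeloid-like cells had 26 UMIs of pycard, 9 of caspb and 924 of krt4, a superficial keratin gene. The remaining 46 myeloid-like cells had 108 pycard UMIs and 0 caspb UMIs. Their krt4 level was 163 UPM, against 70360 in superficial epidermis-like cells. Without that single cell pycard stood at 400 UPM (328 to 482) in the myeloid-like group, and its superficial over myeloid log2 ratio was 1.5 (1.22 to 1.78).

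The caspase gene caspa was far less abundant and was spread more evenly. Its level was 50.1 UPM (43.0 to 58.1) in cut and 37.1 (30.2 to 45.1) in uncut superficial epidermis-like cells. Cluster 3 had 81.9 in cut and 78.1 in uncut, cluster 6 had 64.3 and 63.7, and basal epidermis-like cells had 50.5 and 58.3, in cut and uncut each time. Myeloid-like cells had 93.6 (56.3 to 146) in cut and 68.0 (24.9 to 148) in uncut, from 19 and 6 UMIs. In order of level over both libraries, from the myeloid-like group through cluster 3, cluster 6, the basal and the cap-like groups to the superficial group, each neighbour overlapped the next. Mesenchyme-like cells had 0 UMIs in cut and 4 in uncut. A caspa UMI was seen in 37.8% of cut and 41.3% of uncut superficial epidermis-like cells, against 0 of 62 cut mesenchyme-like cells, which allows up to 4.84%, and 1.17% of uncut ones. Thinned to 2000 UMIs, the superficial shares were 9.15% in cut and 4.52% in uncut.

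The balance of adaptor and caspases was then taken within each cell group. Per 100 UMIs of pycard, caspa had 3.94 in superficial epidermis-like cells, 15.4 in basal epidermis-like cells and 18.7 in myeloid-like cells. Of the UMIs of both caspases, caspa made up 5.92% in superficial epidermis-like cells and 73.5% in myeloid-like cells. All 9 caspb UMIs of the myeloid-like cells were in the cell with 924 krt4 UMIs. The other 46 cells had 25 caspa and 0 caspb UMIs, and 23.1 caspa UMIs per 100 of pycard. The level of caspb was 776 UPM in cut and 617 in uncut superficial epidermis-like cells. Basal epidermis-like cells had a caspb level of 175 in cut and 172 in uncut. These are counts of 3' ends with no scaling for length, and capture may differ between genes, so it is the difference between groups that can be read.

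**Figure D3:**
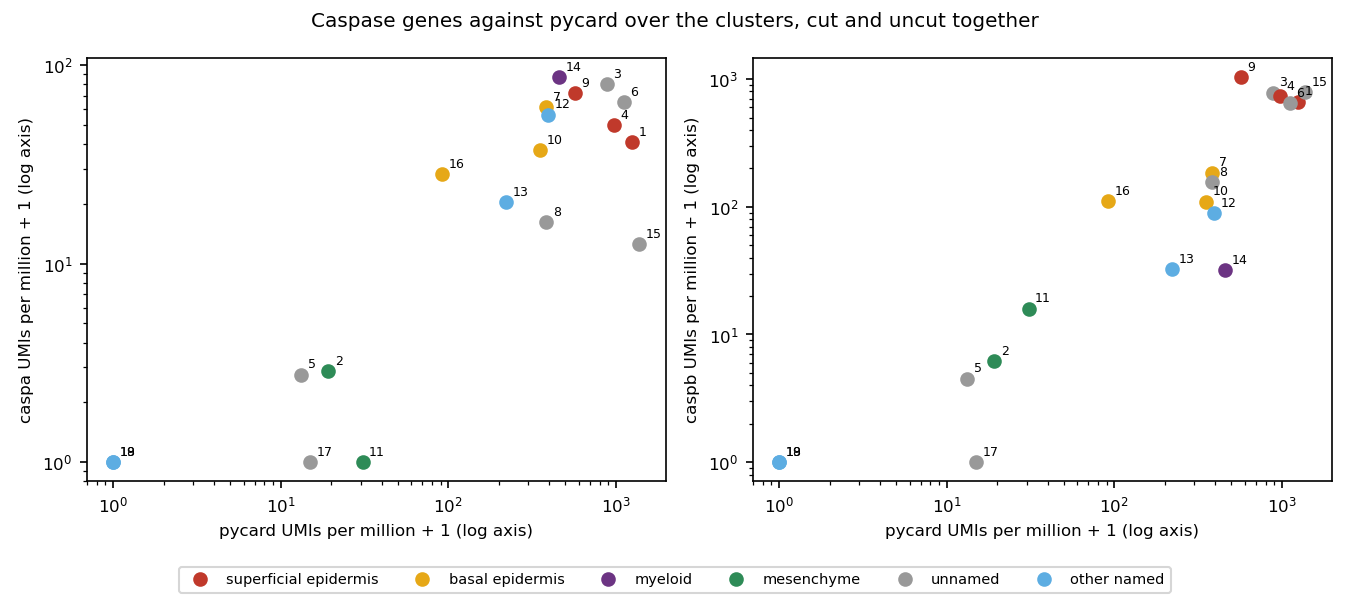
Each point is 1 of the 19 clusters, numbered, with its pycard level on the x axis and its caspa (left) or caspb (right) level on the y axis, in UPM plus 1 on log scales, both libraries together. The myeloid-like cluster 14 sits at the top of the caspa panel and, at 30.9 caspb UPM, well below the epidermal clusters of the caspb panel. All 9 of its caspb UMIs are from 1 cell.

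In the direct comparison of superficial epidermis-like with myeloid-like cells, pycard was 2.45-fold higher in the superficial group, with a log2 ratio of 1.29 (1.05 to 1.55). The ratio was 1.58 within cut and 0.81 within uncut cells. In contrast, caspa was lower in the superficial group, with a log2 ratio of -0.95 (-1.54 to -0.30), an interval that took in 0 (-1.30 to 0.21) once the cell with most caspa UMIs of each group and library was left out. The log2 ratio of il1b was -8.06 (-8.76 to -7.44) and that of tnfb -4.95 (-5.40 to -4.51). With 0 tnfa UMIs in the superficial group, the level that 3 UMIs would give there was 42.8-fold under the myeloid-like level. That level rests on 6 UMIs, whose error is left out, so 42.8-fold is not an exact lower bound. Past 2-fold were 1 of the 4 members with enough UMIs upward and 2 downward, against 27.8% of 5299 genes upward and 17.5% downward. The limit on UMIs was met by il1b through its 275 myeloid-like UMIs.

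Of the cytokine genes, il1b was the most abundant. It had 1029 UPM (895 to 1179) in cut myeloid-like cells and 748 (578 to 951) in uncut ones. The UMIs came from 15 of the 36 cut cells, with 55, 35, 23, 22, 22, 16, 14 and 10 in the 8 highest and 4 or fewer in the others. In uncut they came from 4 of the 11 cells, with 20, 18, 15 and 13, and the remaining cells had 0. Both libraries thus held cells with 10 or more il1b UMIs beside cells with 0. The median depth of cells with il1b was 12064 UMIs, against 2593.5 in those without. Split at 7000 UMIs, a limit chosen after the values were seen, 12 of 13 deeper cells had il1b, at 1326 UPM (1168 to 1500), and 7 of 34 shallower cells, at 219 (137 to 331). The summed macrophage markers were at 5456 UPM in the deeper and 4696 UPM in the shallower cells. The part of depth in the il1b difference was not tested.

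Most of the myeloid-like cells had more macrophage than neutrophil markers. In these 41 cells il1b was at 975 UPM (860 to 1102). In the 5 cells with more neutrophil markers, such as lyz and mpx, il1b had 18 UMIs, of which 15 came from 1 uncut cell. Among these 5, 1 cut cell was near a tie, with 17 neutrophil and 16 macrophage marker UMIs and 0 of lyz and mpx. The remaining myeloid-like cell had equal counts and no UMI of a member. All 25 caspa UMIs, all 6 tnfa UMIs and 102 of the 107 tnfb UMIs of the group were in the macrophage-marker cells. Since most of the group is such cells, these counts cannot show that the genes are limited to them. Levels of tnfb overlapped, at 387 UPM (316 to 470) against 212 (68.7 to 494) in neutrophil-marker cells. Cells with tnfb numbered 12 among the former 41 and 3 among the latter 5. Neutrophil-marker cells lacked caspa and tnfa, but the exact limit of 156 UPM lies above both macrophage-marker levels, 94.9 and 22.8.

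Within myeloid-like cells tnfb followed il1b. Its level was 389 UPM (308 to 485) in cut and 317 (211 to 458) in uncut. Of the 36 cut cells 13 had a UMI, at most 22 in 1 cell, and of the 11 uncut cells 2 had one, with 17 and 11. Of the 15 cells with tnfb, 14 also had il1b, and of the 19 cells with il1b, 14 had tnfb. Both genes were seen more often in deep cells, so how far the overlap exceeds that set by depth was not tested. The third cytokine gene, tnfa, was seen in 3 cut cells with 5 UMIs and in 1 uncut cell with 1 UMI, all of which also had il1b. Outside the myeloid-like cluster the only tnfa UMI was 1 in cluster 15 in cut.

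**Figure D4:**
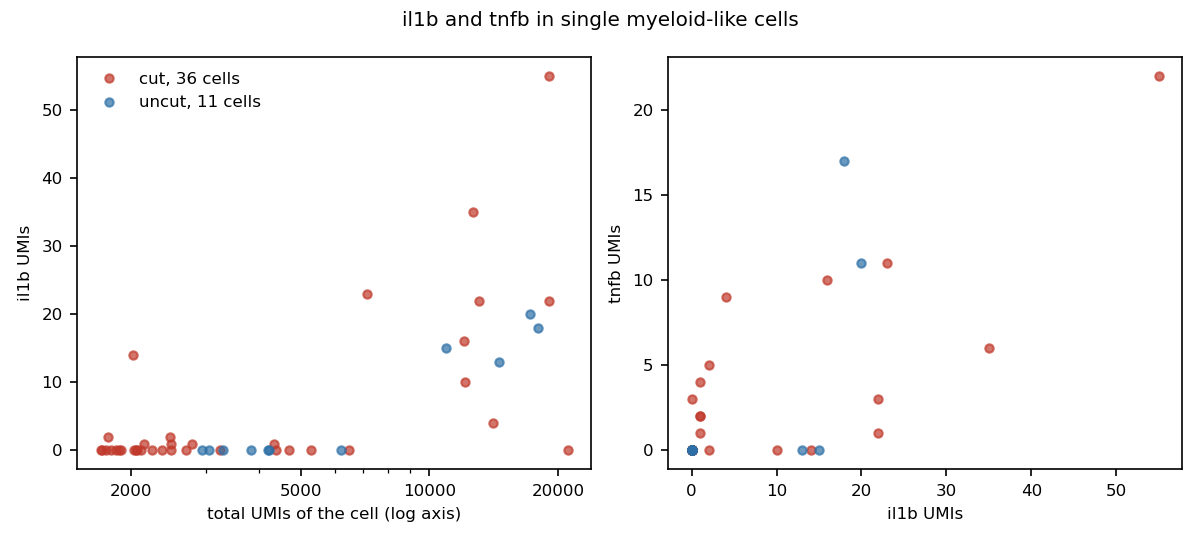
Each point is a myeloid-like cell, 36 cut (red) and 11 uncut (blue), with its total UMIs (x, log axis) against il1b UMIs (y) on the left, and il1b UMIs (x) against tnfb UMIs (y) on the right. Cells with 10 or more il1b UMIs lie, but for 1 cut cell, above 7000 total UMIs, and 14 cells have both cytokines.

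The epidermis also had UMIs of tnfb, and in the outer layer. In cut superficial epidermis-like cells 68 UMIs were spread over 21 cells, at most 9 in 1 cell, a level of 19.4 UPM (15 to 24.5). In uncut ones there were 6 UMIs in 6 cells, a level of 2.2 (0.809 to 4.80). All 3 superficial clusters had it: cluster 1 had 29 UMIs in cut and 3 in uncut, cluster 4 had 24 in cut and 2 in uncut, and cluster 9 had 15 in cut and 1 in uncut. Basal epidermis-like and mesenchyme-like cells had 0 UMIs in both libraries. Within cut cells the superficial level was 6.17-fold above the level that 3 UMIs would give in basal and mesenchyme-like cells together. The error of the 68 UMIs is left out of this figure. The share of cut superficial cells with tnfb was 7.02% (4.40 to 10.5). The same share was 0 of 72 in cut basal cells, which allows up to 4.17%, and 0 of 62 in cut mesenchyme-like cells, which allows up to 4.84%. The exact intervals of these zero shares reach 4.99% and 5.78% and so overlap that of the superficial share. Thinned to 2000 UMIs, the superficial share was 3.17% in cut and 0 of 155 in uncut, which allows up to 1.94%.

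These epidermal tnfb UMIs were set beside markers of myeloid cells in the same cells. Of the 12 myeloid markers with at least 50 UMIs in myeloid-like cells, cyba was left out after its values were seen, since superficial cells had 211 UMIs of it in cut. The remaining listed marker, csf1ra, had 38 UMIs in myeloid-like and 0 in superficial cells. In cut superficial epidermis-like cells the other 11 markers together had 14 UMIs, a sum of 3.99 UPM with mpx and lyz at 0, and tnfb had 68. In cut myeloid-like cells the same markers had 1858 UMIs, none of them was at 0, and tnfb had 79. The marker sum in uncut was 1.47 UPM in superficial cells, with 9 of the 11 at 0, and 14589 UPM in myeloid-like cells. Of the latter, lyz alone made up 6694 UPM, and all UMIs of lyz, mpx and npsn there came from 1 cell. The ratio of tnfb to the 11 markers was 4.86 in the superficial and 0.0425 in the myeloid-like cells of the cut library. The markers were picked for their UMIs in myeloid-like cells, so this contrast follows in part from that choice. It cannot show where the superficial tnfb UMIs come from, which was not tested. Only 1 of the 21 cut superficial cells with tnfb had a marker UMI, as did 10 of the 278 without tnfb. The ratio of tnfb to il1b was 3.4 in cut superficial and 0.378 in cut myeloid-like cells. Of the 21 cut superficial cells with tnfb and the 11 with il1b, 2 had both.

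Epidermal il1b was sparse. In cut superficial epidermis-like cells 20 UMIs lay in 11 cells, a level of 5.69 UPM (3.48 to 8.79), and in uncut ones 2 UMIs lay in 1 cell. Basal epidermis-like cells had 11 UMIs in 3 cut cells and 3 UMIs in 3 uncut cells. Cluster 6 had 23 UMIs in 6 cut cells, 10 of them in 1 cell, and 0 in uncut, and its sum of the 11 myeloid markers was 41.9 UPM in cut and 2.12 UPM in uncut. Of the 6 cut cells of cluster 6 with il1b, 1 had UMIs of these markers, 11 in all. Of the 69 cut cells of the cluster without il1b, 9 had a marker UMI. Of the 23 il1b UMIs, 22 were in cells without a marker UMI. Within cut cells the superficial level was not above that of basal and mesenchyme-like cells together, with a log2 ratio of -1.02 (-2.15 to 0.19). The share with il1b was 3.68% (1.85 to 6.49) of cut superficial cells and 1.06% when thinned, and 0 of 62 cut mesenchyme-like cells allows up to 4.84%. Against mesenchyme-like cells alone, over both libraries, superficial cells had 22 UMIs and mesenchyme-like cells 1, a log2 ratio of 3.2 (0.57 to 8.57). This ratio mixes the libraries. Within cut the counts were 20 and 0 UMIs, for which no ratio was taken. Within uncut they were 2 and 1, a log2 ratio of 0.67 (-3.60 to 6.55). Whether superficial il1b exceeds the mesenchyme-like level within a library thus could not be told. All 11 UMIs of the cut basal and mesenchyme-like cells were basal, so the ratio to that pair rests on basal il1b. Set directly against basal cells within cut, the superficial level of 5.69 UPM was lower than the basal 21.4 UPM. That log2 ratio was -1.91 (-3.04 to -0.70), with 6 of the 11 basal UMIs from 1 cell. Per UMI of the 11 myeloid markers, il1b had 1.43 UMIs in cut superficial and 0.112 in cut myeloid-like cells. As for tnfb, this contrast follows in part from how the markers were picked. None of the 11 cut superficial cells with il1b had a UMI of the 11 myeloid markers. Of the 288 without il1b only 11 had one, so a count of 0 among so few cells tells little.

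Smaller groups had few cytokine UMIs but not low levels. Neuromast-like cells, from the sensory organs of the lateral line, had 6 tnfb UMIs in 4 of 18 cut cells and 5 in 4 of 32 uncut cells. These are levels of 50.7 UPM (18.6 to 110) in cut and 16.9 UPM (5.50 to 39.5) in uncut, above the superficial values in both libraries, with an interval that overlaps the superficial one in cut but not in uncut. Apical epithelial cap-like cells, the epithelium over the fin tip, had 6 il1b UMIs in cut and 6 in uncut. The uncut ones came from 2 of 37 cap-like cells, with 5 in 1 cell. The cap-like il1b level was 45.5 UPM (16.7 to 99.0) in cut and 19.9 UPM (7.31 to 43.4) in uncut, above the superficial level in both. All 12 of the cap-like tnfb UMIs were from 1 uncut cell.

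Cut was then set against uncut within each group. In superficial epidermis-like cells pycard was 1.57-fold higher in cut, with a log2 ratio of 0.65 (0.58 to 0.72), where the median of all genes was 0.17. The log2 ratio was 0.68 (0.59 to 0.77) in cluster 1 and 0.49 (0.36 to 0.62) in cluster 4, but 0.04 (-0.39 to 0.47) in cluster 9. Cluster 3 had 0.45 (0.30 to 0.60), cluster 6 had 0.56 (0.44 to 0.69) and the basal group 0.53 (0.31 to 0.76). The ratio was larger in cluster 8, at 1.11 (0.79 to 1.44), and in cluster 15, at 1.40 (0.70 to 2.18). The kinds of dividing cells in cluster 8 were not set apart, so a change in their mix cannot be told from one in level. The mesenchyme-like group was at -1.76 (-4.09 to -0.13), from 3 cut and 50 uncut UMIs, many of the latter from a single cell as given above. Within its clusters the interval took in 0, with -4.92 to 0.13 in cluster 2 and -7.18 to 0.96 in cluster 11. The median pycard level over single superficial cells was 1135 UPM in cut and 753 in uncut. In myeloid-like cells the log2 ratio was -0.12 (-0.66 to 0.44), and -0.45 (-1.03 to 0.14) without the cell with caspb UMIs.

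For caspa the cut over uncut log2 ratio in superficial epidermis-like cells was 0.43 (0.07 to 0.80). It was 0.79 (0.19 to 1.41) in cluster 4 and 0.28 (-0.21 to 0.79) in cluster 1, and with clusters 3, 6 and 15 joined it was 0.11 (-0.14 to 0.36). The interval also reached 0 at Leiden resolutions 0.5 and 2 and with K-means, so whether caspa differed could not be told at this depth. In basal epidermis-like cells the caspa ratio was -0.21 (-0.90 to 0.44). Neither pycard nor caspa was past 2-fold in that group, where 7.94% of 2369 genes were higher and 5.28% lower in cut. In myeloid-like cells the caspa ratio was 0.46 (-0.92 to 2.07).

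For the cytokine genes in the epidermis the ratios were larger but rest on few UMIs. In superficial epidermis-like cells tnfb was 8.79-fold higher in cut, a log2 ratio of 3.14 (1.94 to 4.63), with the intervals of clusters 1, 4 and 9 each above 0. The unthinned share of superficial cells with tnfb was 7.02% (4.40 to 10.5) in cut and 3.87% (1.43 to 8.23) in uncut, with overlapping intervals. The 68 cut UMIs lay in 21 cells, up to 9 in 1, so the interval of the ratio is too narrow for the spread between cells. Of all 5064 genes compared in this group, 3.1% were at least 2-fold higher in cut and 0.77% at least 2-fold lower. Of the 3 members with at least 50 UMIs over both libraries, tnfb was the only one past 2-fold, and it reached 50 through its 68 cut UMIs. For il1b the log2 ratio was 2.95 (0.91 to 6.10) from 20 and 2 UMIs, under the minimum for that background. In cluster 6 the cut il1b level, from 23 UMIs, was 7.38-fold above the level that 3 UMIs would give in uncut, which had 0. The error of the 23 UMIs is left out of this figure. In basal epidermis-like cells the il1b log2 ratio was 3.39 (1.47 to 5.87), from 11 cut UMIs of which 6 were in 1 cell. Cluster 7 held 10 of them, against 1 in uncut, while cluster 10 had 0 in cut and 1 in uncut, and cluster 16 had 1 in each.

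In myeloid-like cells the cytokine ratios were smaller. The cut over uncut log2 ratio of il1b was 0.46 (0.06 to 0.88), where the median of 629 genes was 0.29, and its interval reached 0 with K-means and when the top cell of each library was left out. That of tnfb was 0.30 (-0.34 to 0.97). With the top cell of each library left out it was 0.99 (0.04 to 2.07), since 17 of the 28 uncut UMIs were from 1 cell. None of the 3 members with enough UMIs was past 2-fold, where 17.8% of genes were higher and 3.34% lower by that measure. The share with il1b was 41.7% (25.5 to 59.2) of cut and 36.4% (10.9 to 69.2) of uncut myeloid-like cells, whose median depth was 2488.5 UMIs in cut and 4221 in uncut. The share with tnfb was 36.1% in cut and 18.2% in uncut, with overlapping intervals.

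**Figure D5:**
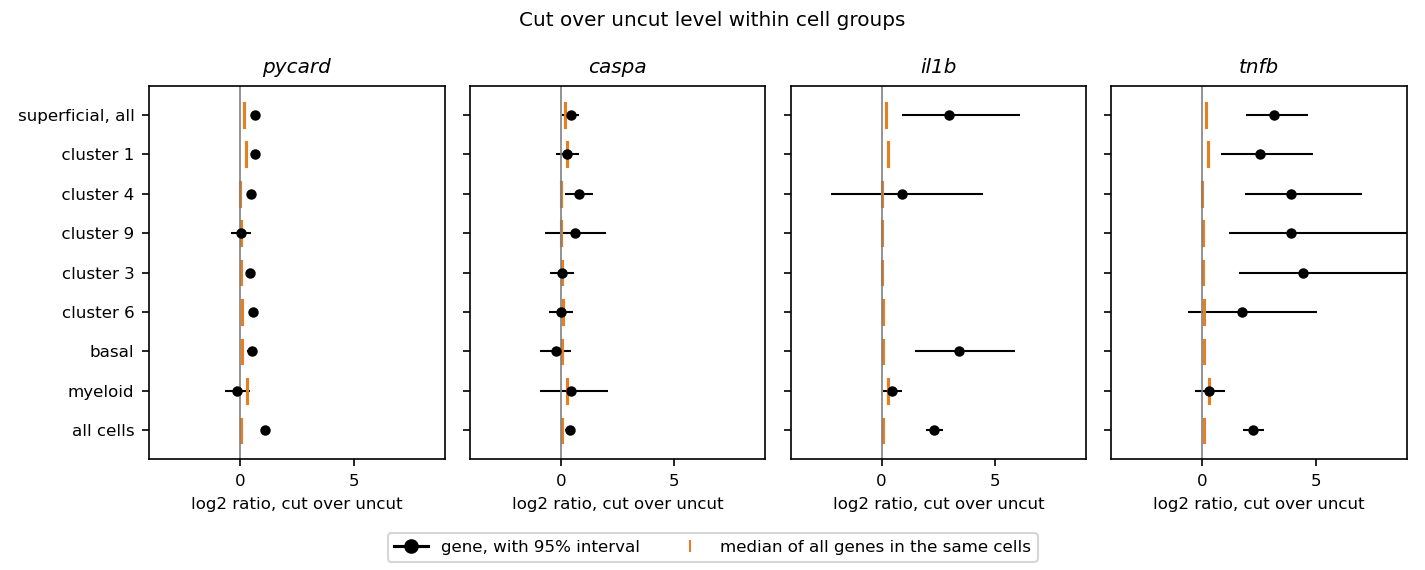
The x axis is the log2 ratio of cut over uncut level with its exact 95% interval (some run past the right edge), for 4 genes (panels) in cell groups (rows). Orange ticks are the median of all genes in the same cells, and a row without a point had 0 UMIs in a library. The tnfb ratios in clusters 1, 4 and 9 exceed those of pycard, and the intervals of the myeloid ratios include the tick.

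Summed over all cells of a library, the cut over uncut log2 ratio was 1.11 (1.06 to 1.17) for pycard, 0.42 (0.20 to 0.63) for caspa, 2.32 (1.96 to 2.70) for il1b and 2.23 (1.78 to 2.70) for tnfb. Thus 3 of these 4 members were past 2-fold and higher in cut, against 2.4% of 8401 genes higher and 7.7% lower. These sums mix the number of cells of a group with the level within it. Superficial epidermis-like cells were 39.2% of cut and 17.7% of uncut cells, and myeloid-like cells 4.72% of cut and 1.25% of uncut cells. For pycard and il1b the all-cell ratio was above that within their main group.

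The same comparisons were made for other genes of the pathway. Of 63 listed genes 40 had at least 50 UMIs. In superficial epidermis-like cells 24 of these could be compared, of which 3 were at least 2-fold higher in cut and 0 lower, or 12.5% against 3.1% of all genes. The 3 were nfkbiaa, an inhibitor and target of NF-kappaB, and ptgs2a and ptgs2b, the prostaglandin synthases induced by inflammation. The level of nfkbiaa was 339 UPM in cut and 138 in uncut, a log2 ratio of 1.29 (1.12 to 1.46). For ptgs2b it was 85.7 in cut and 29.8 in uncut, with a log2 ratio of 1.53 (1.17 to 1.90) and 33 of its 301 cut UMIs in 1 cell. The log2 ratio of ptgs2a was 1.09 (0.74 to 1.45). The median log2 ratio of the 24 genes was 0.43, against 0.17 for all genes. In myeloid-like cells only 5 could be compared, and card9, an adaptor of immune receptors, was the 1 past 2-fold. Its log2 ratio was 1.21 (0.48 to 2.03), and 17 of its 18 uncut UMIs were from 1 cell. The share past 2-fold, 20%, is near the 17.8% of all genes in the same cells.

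By cell group, 8 of 27 comparable pathway genes were at least 2-fold higher in superficial epidermis-like than in myeloid-like cells, and 11 at least 2-fold lower. The higher share, 29.6%, is near the 27.8% of all genes, and the lower share was 40.7% against 17.5%. On the superficial side were caspb, with a log2 ratio of 4.52 (3.59 to 5.65), ptgs2a, ptgs2b, the death ligand genes tnfsf10 and tnfsf10l, and the signalling genes ticam1, tab2 and chuk. Most rest on few myeloid UMIs. These were 1 each for chuk, ticam1 and tnfsf10l, 2 each for tnfsf10 and ptgs2a, and 4 each for tab2 and ptgs2b. The intervals of ticam1 and tnfsf10 included 0. On the myeloid side were card9, itself among the myeloid markers, at -11.3, the tumour necrosis factor receptor gene tnfrsf1a and its adaptor gene tradd, at -1.27 and -2.42, and nfkb2, nfkbiaa, nfkbiab and nfkbie of the NF-kappaB system, with cebpb, tnip1, socs3b and tnfsf12. The receptor gene tnfrsf1a was thus read from both groups, at 25.7 UPM in superficial epidermis-like and 61.8 UPM in myeloid-like cells. Its level was 47.2 in basal and 125 in apical epithelial cap-like cells. The comparison leaves those epithelia out, and ptgs2a, at 55.8 UPM in superficial cells, had 276 in basal and 908 in cap-like cells. By contrast, ptgs2b had 61.3 UPM in superficial, 7.03 in basal and 0 in cap-like cells. For cebpb the cap-like level was 1901 UPM, beside 1988 in myeloid-like cells.

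Genes with a like pattern were taken by Pearson correlation of log2 level over the 19 clusters, as a description of these clusters, which share libraries. Some of these genes (cyt1, lcp1, lyz, ncf1, srgn) were also among the markers. Nearest to pycard were cyt1, a keratin gene (r = 0.94), arhgdig (0.94), si:ch211-105c13.3 (0.93), gpd1c (0.93) and s100w (0.92), and caspb was the sixth with 0.92. Nearest to caspa were cebpa, a transcription factor gene (0.95), gpd1c (0.94), arhgdig (0.93), ahcyl1 (0.91) and abracl (0.90), with pycard at rank 22 (0.84). Nearest to il1b were the leukocyte genes srgn (0.96), lcp1 (0.95), pglyrp5 (0.94), lyz (0.94) and cxcl19 (0.94), with tnfb at rank 39 (0.84). Within the myeloid-like cluster lyz rests on 1 uncut cell with 591 UMIs, the other cells having at most 2. For tnfb they were irf1b (0.93), atp6v1ba, atp6v1f and ncf1 (0.89 each) and srgn (0.88). Only 1 of the 19 clusters was myeloid-like, with il1b at 944 UPM there and at 27.7 UPM or less in each other group. The r values of il1b thus rest largely on that cluster.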

How the data were processed

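Single cells of 1 cut and 1 uncut library were measured with the Chromium 3' kit. The authors counted UMIs with Cell Ranger 3.1.0 against danRer11 at default options, and the deposited values are raw counts per gene and cell. Rows and columns of the matrices take their names from the deposited gene and barcode lists. The authors' aggregated counts were used, and each cell's library was taken from the barcode lists of the separate libraries. Depth ran from 1519 to 60124 UMIs per cut cell and from 2557 to 64483 per uncut cell, and no cell was removed. The study aimed at 4000 cells per library, and the files hold 762 cut and 878 uncut barcodes and 0 mitochondrial genes. With counts of this size a group at 0 allows a level of up to 3 UMIs over its total.

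Counts were read with Python 3.11.15, numpy 2.4.6, scipy 1.17.1 and pandas 2.3.3. Log2 of scaled counts plus 1, of 8357 genes with at least 50 UMIs, gave 15 principal components (scikit-learn 1.9.0) and Leiden clusters at resolution 1 on 15 neighbours with seed 1 (leidenalg 0.10.2, python-igraph 0.11.9). Clusters were named from listed markers, of which 3 had to be raised (2-fold or more over the remaining cells, and seen in 25% of the cluster). A cluster stayed unnamed if another class led its 10 top genes, if it was shallow, or had few raised markers, with no marker among those genes. The limits for raised markers were chosen with the values known, and names may differ from those of the study. Ratios have exact conditional binomial 95% intervals. Genes compared between groups had at least 50 UMIs over both sides together, so some entered through a single side. A 2-fold ratio counted as past the limit. The ratio and its interval were tried on simulated group totals drawn from a Poisson model. Such draws leave out the gathering of UMIs in few cells, so they cannot show how the intervals do there. Scrublet (scanpy 1.11.5) called 0 cut and 5 uncut cells as doublets, which were kept.

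The members, the pathway list and the markers were chosen with earlier results of these data known. Named were the members, caspb, pathway genes with at least 50 UMIs past 2-fold, and the 5 genes most like each member with at least 100 UMIs, on log2 of UPM plus 10. Alternatives were other clusterings, doublet and depth filters, the separate matrices, the top cell left out and the mean over cells. Gene order is from RefSeq, whose assembly differs from that of the files.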

Additional observations from a re-analysis of the deposited data

How the results depend on the processing

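No paired analysis was possible because each condition is 1 library. The 12 log2 ratios (pycard, caspa, il1b and tnfb: superficial over myeloid, and cut over uncut in both groups) were recomputed under up to 11 alternatives and, chosen after seeing the data, with clusters 3, 6 and 15 joined to the superficial group or without 1 myeloid-like cell. Of 151 values 138 stayed within the 95% interval, and 13 did not. Some of the 138 could not move. The myeloid-like group kept its 36 cut and 11 uncut cells with members kept in the clustering and at both other Leiden resolutions. The same held without doublets and with clusters joined, so its cut over uncut ratios were repeated there. Leaving out 1 myeloid-like cell likewise cannot move the superficial cut over uncut ratios. The count of 138 thus overstates how far the results were tried. The superficial pycard cut over uncut ratio was 0.57 with members kept in the clustering and 0.57 as a mean over cells. The superficial over myeloid ratio of tnfb was -5.54 at resolution 2 and -5.46 with 30 principal components. With the top cell left out, the superficial over myeloid ratio of pycard was 1.62 and the myeloid cut over uncut ratio of tnfb 0.99. As means over cells, the superficial over myeloid ratio was -6.38 for il1b and -3.46 for tnfb, and the myeloid cut over uncut ratio of tnfb was 1.13. Over all cells in place of a group, the cut over uncut ratio was 1.11 for pycard (against both groups), 2.32 for il1b and 2.23 for tnfb (against myeloid-like cells), and the cause of these shifts was not tested. Direction was kept in all of these but the myeloid pycard cut over uncut ratio, which was above 0 over all cells and, at 0.12, as a mean over cells. With the top cell left out the superficial il1b ratio could not be computed, since uncut then had 0 UMIs. Values of il1b outside myeloid-like cells and of tnfa in any group rest on few UMIs. Of 128 shares of cells 103 stayed within their intervals, with repeats of the same kind among those of the myeloid-like group. With 36 cut and 11 uncut myeloid-like cells, shares there are known only broadly.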
